A study of Mus musculus with 12 samples.

Results

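The heat shock chaperone genes described here are 10 genes of protein folding, Hspa1a, Hspa1b, Hspa8, Hsph1, Hsp90aa1, Hsp90ab1, Dnajb1, Hspb1, Hspd1 and Hspe1, and they were taken by gene symbol from the 25284 gene rows of a table of read counts. All 10 rows were found, and all 10 passed the filter on low counts that left 15857 genes for testing. The counts come from thoracic aorta of 12 male ApoE-/- mice, which lack apolipoprotein E and so develop atherosclerosis, aged 18 weeks and fed a high fat, cholesterol enriched diet. AZ6983, an agonist of the alpha 7 nicotinic acetylcholine receptor, was delivered to 6 of the mice (A1 to A6) from osmotic minipumps under the skin for 8 weeks, at a daily dose of 50 µmol per kg. The other 6 mice (C1 to C6) received vehicle, cyclodextrin in saline, by the same route. The comparison asks which transcripts of the aorta differ after the receptor is stimulated, at 1 dose and at 1 time.

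Chaperones bind unfolded proteins and help them to reach or to regain their shape. When unfolded protein builds up in the cytosol, as in heat, heat shock factor 1 (Hsf1) forms trimers, binds repeated GAA and TTC units in promoters, called heat shock elements, and switches on chaperone genes. Hsp70 proteins work in cycles of ATP with an Hsp40 partner that delivers the client and an Hsp110 partner that exchanges the nucleotide, Hsp90 takes over clients such as kinases and steroid receptors, small heat shock proteins hold unfolded protein without ATP, and Hsp60 with Hsp10 forms the folding chamber of the mitochondrial matrix.

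Upstream sequences are shown for Hspa1a and Hspa1b because these neighbouring genes of chromosome 17 varied most between mice and almost in step. The 250 bases before the start of each, on the minus strand of GRCm38.p6, were taken from RefSeq. Capitals mark a 2-unit heat shock element, GAANNTTC or TTCNNGAA, where N is any base.
Hspa1a, chr17:34972157-34972406: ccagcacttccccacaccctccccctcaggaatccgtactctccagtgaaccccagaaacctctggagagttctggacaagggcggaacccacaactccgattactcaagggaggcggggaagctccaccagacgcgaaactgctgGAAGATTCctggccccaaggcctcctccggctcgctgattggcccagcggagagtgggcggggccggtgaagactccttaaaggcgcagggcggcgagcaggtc
Hspa1b, chr17:34959239-34959488: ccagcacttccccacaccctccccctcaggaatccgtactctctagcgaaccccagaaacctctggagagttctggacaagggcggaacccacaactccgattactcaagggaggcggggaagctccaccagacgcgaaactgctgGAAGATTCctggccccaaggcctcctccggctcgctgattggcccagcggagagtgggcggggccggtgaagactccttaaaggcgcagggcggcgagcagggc
The upstream stretches have 247 identical bases and 3 substitutions, C44T, T47C and T249G, with the Hspa1a base first and positions counted from 1 at the 5′ end of the stretch. Both carry the same element, GAAGATTC, at the same place.

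Shorter stretches are shown for the other members with an element, because they show how differently the units are arranged, and because Hspd1 and Hspe1, which also varied almost in step, lie on opposite strands and share the same stretch. Capitals again mark the elements, and each stretch holds 30 bases.
Hspe1, chr1:55088053-55088082, plus strand: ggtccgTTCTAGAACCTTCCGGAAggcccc
Hspd1, the same bases, minus strand: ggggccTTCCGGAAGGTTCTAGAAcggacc
Hsph1, chr5:149636352-149636381, minus strand: tgggtagaatctTTCTCGAAggctcgagaa
Hspb1, chr5:135887800-135887829, plus strand: gaGAAGTTTCcagatgggggcaGAACCTTC
The stretch of Hspd1 and Hspe1, which lies before the start of Hspe1 and before 1 of the 2 RefSeq starts of Hspd1 but within the annotated Hspd1 gene, holds the longer 3-unit form, in which 3 alternating GAA and TTC units stand 2 bases apart on either strand, and which contains the 2-unit form. The 3-unit form was present in 153 of 32851 RefSeq promoter entries (0.466%) and the 2-unit form in 4218 (12.8%), where each 2-unit form reads the same on both strands. RefSeq promoter entries were matched for 7 of the 10 genes, and none was matched for Hspa8, Hsp90aa1 and Hsp90ab1. Neither of the 2 entries of Dnajb1 held the letters, both entries of Hsph1 did, and 1 of the 2 entries of Hspd1 did. Such a match describes the letters in the window and does not show that a factor binds there. The Hsph1 element lies before both RefSeq starts but within the annotated Hsph1 gene, whose first base is chr5:149636376.

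In the annotation (GRCm38, GENCODE release M21) all 10 are protein-coding genes. Hspa1b (chr17:34956436-34959238) and Hspa1a (chr17:34969190-34972156) lie on the minus strand with 9951 bases between them. Hsp90ab1 lies on the same chromosome (chr17:45567775-45573271, minus). The other cytosolic genes are Hspa8 (chr9:40800984-40810087, plus), Hsph1 (chr5:149614287-149636376, minus), Hsp90aa1 (chr12:110690605-110702728, minus), Dnajb1 (chr8:83608193-83612653, plus) and Hspb1 (chr5:135887919-135889563, plus). Hspd1 (chr1:55077835-55088243, minus) and Hspe1 (chr1:55088132-55091307, plus) overlap by 112 bases at their starts. The strand setting of the counting is not given in the sources used here, so it is not known to which gene reads in this overlap were counted.

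Near-identical copies limit how far some counts belong to 1 gene. The coding sequences of Hspa1a and Hspa1b match at 1915 of 1926 aligned bases (99.4%), against 73.9% between Hspa1a and Hspa8 and 75.4% between Hsp90aa1 and Hsp90ab1. Windows of 75 bases, the read length, occurred also in transcripts of other genes for 61.7% of the Hspa1a transcript, 55.8% of Hspa1b, 68.6% of Hspa8, 57.7% of Hspb1, 53.1% of Hsp90aa1, 33.7% of Hspd1 and 29.1% of Hspe1. The share was 0.736% for Hsp90ab1 and 0 for Hsph1 and Dnajb1. The values of Hspa1a and Hspa1b are therefore uncertain as values of separate genes. Windows were matched on either strand, and other genes annotated at the same place were not set apart from copies. For Hspe1, 38 of the shared windows matched Hspd1, which it overlaps on the opposite strand. Reads came from both ends of a fragment, which single windows do not take into account. The symbol-matched pseudogene rows were low, with 19 to 49 counts per mouse for Hspd1-ps3, 2 to 27 for Hspd1-ps4 and 0 to 2 for Hspe1-ps6. Copies with other names, such as Gm15459 for Hspa8, Gm12346 for Hsp90aa1 and Hsp25-ps1 for Hspb1, were not looked up.

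Counts on genes were 23810036 to 35864666 per mouse, and the member with the fewest counts, Hspa1a, had 631 to 3380. Values below are CPM, the count of a gene per 1e+06 counts on genes, after scaling of the libraries by the TMM method, and fold changes are from edgeR's quasi-likelihood test with adjustment over all 15857 genes. The no-gene share is the percentage of a library's reads that the counting set aside as lying on no gene. It was 10.1% ± 1.55 in controls and 12.8% ± 1.36 in AZ6983 mice (SD, n = 6 each, two-sided exact permutation p = 0.0108). Whether it includes reads in introns is not known, since the counting settings are not given. Summed thymocyte markers were at 1430 CPM in A4, with no other mouse above 124.9 CPM, and summed skeletal muscle markers ran from 5.88 to 577 CPM. Smooth muscle markers, which define the aortic wall, were present in every library at 11340 to 19300 CPM. In such bulk samples, fewer cells of a type and less RNA per cell cannot be told apart. The column used for A1 holds only 3 of the 4 digits of its mouse number.

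Per kilobase of all annotated exons of a gene merged, the housekeeping chaperones Hsp90ab1 and Hspa8 had the highest values. On this scale mean CPM per kilobase was 402 in controls and 400.0 in AZ6983 mice for Hsp90ab1, and 350.4 and 359.5 for Hspa8. Hspb1 (201 and 189), Hspd1 (171 and 163) and Hsp90aa1 (165 and 143) lay in the middle. Lower levels were measured for Hspe1 (69.9 and 67.2), Hsph1 (30.3 and 35.4), Hspa1b (26.8 and 41.3), Hspa1a (14.5 and 22.9) and Dnajb1 (14.0 and 17.7). The order of the first pair depends on the length used, since per kilobase of a single transcript the control mean was 629.5 for Hspa8 and 478 for Hsp90ab1. Together the 10 genes took 0.308% of counts on genes in A1 and 0.620% in A2, the lowest and the highest mouse, and 0.315% and 0.550% in C6 and C2, the lowest and the highest control.

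No member differed between AZ6983 and control mice at 10% FDR, and none of all 15857 genes did (0% called). The highest estimates were those of Hspa1a, Hspa1b and Dnajb1, 0.66, 0.62 and 0.34 on the log2 scale, and the lowest was that of Hsp90aa1, -0.20. All 4 had a 95% interval that included 0, and without A2 the first 3 were 0.40, 0.27 and 0.16. At an unadjusted p under 0.05 edgeR called 1616 of all genes (10.2%, 7.38% higher and 2.81% lower in AZ6983 mice) and 0 of the 10 members. DESeq2 called 92 of 17592 genes at 10% FDR (0.523%) and 0 members. Non-overlapping groups were found for 65 genes (0.41%) and for 0 members. Estimates were above 0 for 5 members and below 0 for 5, with a median of 0.02 against 0.01 over all genes, and adjusted p-values were 0.538 to 0.992.

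**Figure D1:**
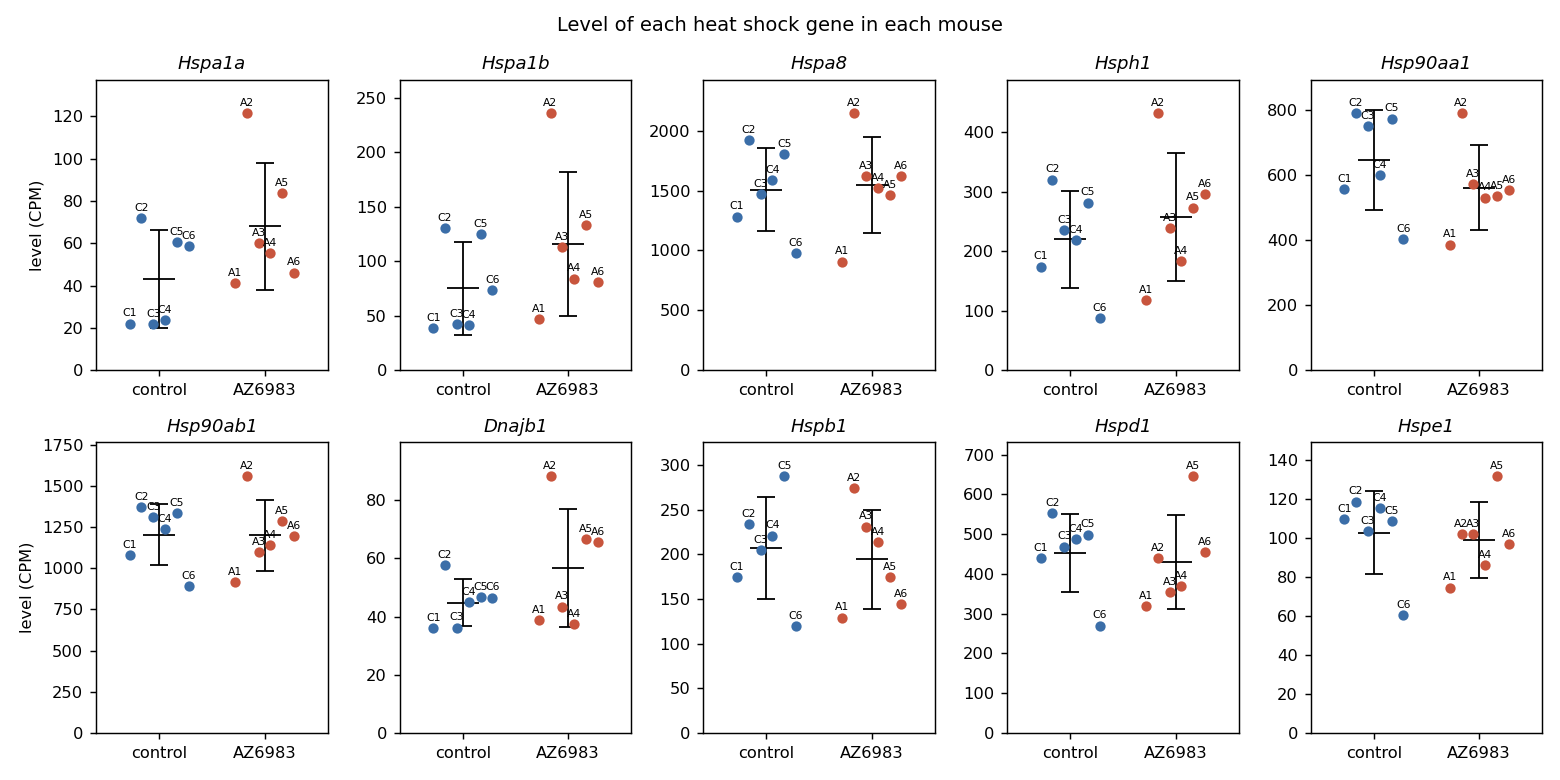
Level of each heat shock chaperone gene in each mouse, as CPM, with controls and AZ6983 mice side by side. The groups overlapped for each of the 10 genes, and Hspa1b had the widest spread, from 38.4 CPM in C1 to 236 CPM in A2.

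Hspa1a encodes an inducible Hsp70 that most cells make in quantity only under stress. Its lowest, median and highest values were 21.97, 41.1 and 71.9 CPM in controls, and 41.2, 57.7 and 122 CPM in AZ6983 mice. The controls fell apart, with C1, C3 and C4 at 21.97 to 23.6 and C2, C5 and C6 at 58.6 to 71.9, while A2 and A5 stood above every control and the other AZ6983 mice lay within the control range. The log2 fold change was 0.66 (SE 0.365, 95% interval -0.13 to 1.45, edgeR adjusted p = 0.538, exact permutation p = 0.0974).

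Hspa1b encodes the near-identical second inducible Hsp70. Controls had 38.4, 57.9 and 130 CPM as lowest, median and highest values, and AZ6983 mice had 46.8, 98.4 and 236 CPM. The order of the mice was much the same as for Hspa1a, with C1, C3 and C4 low and A2 highest, except that C6 (73.7) and A1 (46.8) lay lower relative to the rest. Between the groups the log2 fold change was 0.62 (SE 0.413, 95% interval -0.27 to 1.52, edgeR adjusted p = 0.585). Counts of Hspa1b were 1.14 times those of Hspa1a in A1, 1.26 times in C6, 1.52 and 1.59 times in A4 and A5, and 1.745 to 2.06 times in the other mice.

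Dnajb1 encodes the Hsp40 that delivers clients to Hsp70 and stimulates its ATPase. Its lowest, median and highest values were 35.9, 45.8 and 57.8 CPM in controls and 37.4, 54.5 and 88.4 CPM in AZ6983 mice. A2, A5 and A6 (65.5 to 88.4) lay above every control, and the other 3 AZ6983 mice lay among the controls. For AZ6983 against control the log2 fold change was 0.34 (SE 0.209, 95% interval -0.11 to 0.80, edgeR adjusted p = 0.562). The no-gene share, which was higher in the AZ6983 libraries, varied with these 3 genes, as given further on.

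Hsph1 encodes an Hsp110, the nucleotide exchange partner of Hsp70. Controls had 88.1, 227 and 320 CPM as lowest, median and highest values and AZ6983 mice 118, 256 and 432 CPM. The low ends of both groups were single mice far below the rest, C6 and A1, and the highest was A2. The log2 fold change was 0.23 (SE 0.319, 95% interval -0.46 to 0.91, edgeR adjusted p = 0.812), which leaves a change of either sign within the interval.

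Hspa8 encodes Hsc70, the Hsp70 that cells make at all times. The values were 977, 1528 and 1924 CPM in controls and 907, 1570 and 2147 CPM in AZ6983 mice, again with C6 and A1 lowest and A2 highest. Its log2 fold change was 0.04 (SE 0.198, 95% interval -0.39 to 0.47, edgeR adjusted p = 0.960).

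Hsp90aa1 encodes the Hsp90 isoform that stress raises. Its values were 403, 677 and 791 CPM in controls and 387, 546 and 792 CPM in AZ6983 mice. C2, C3, C5 and A2 formed the upper end at 752 to 792, C6 and A1 the lower end, and 4 of the AZ6983 mice lay close together at 531 to 573. Its log2 fold change was -0.20 (SE 0.184, 95% interval -0.60 to 0.20, edgeR adjusted p = 0.688).

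Hsp90ab1 encodes the constitutive Hsp90 and varied least of the 10, by 1.75 times between the lowest and the highest mouse. The values were 894, 1274 and 1370 CPM in controls and 916, 1168 and 1562 CPM in AZ6983 mice, with C6, A1 and A2 at the ends. Its log2 fold change was -0.01 (SE 0.137, 95% interval -0.30 to 0.29, edgeR adjusted p = 0.992).

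Hspb1 encodes a small heat shock protein that is abundant in muscle and is tied to actin filaments. Its lowest, median and highest values were 120, 213 and 288 CPM in controls and 129, 194 and 275 CPM in AZ6983 mice. C5 was highest, ahead of A2, and C6 and A1 were lowest. The log2 fold change was -0.09 (SE 0.216, 95% interval -0.56 to 0.38, edgeR adjusted p = 0.9004).

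Hspd1 encodes Hsp60 and Hspe1 encodes Hsp10, the barrel and the lid of the mitochondrial folding chamber. Hspd1 had 270, 478 and 553 CPM in controls and 319, 404 and 646 CPM in AZ6983 mice. Hspe1 had 60.7, 109 and 119 CPM in controls and 74.7, 99.6 and 132 CPM in AZ6983 mice. For both genes C6 was the lowest and A5, not A2, the highest mouse, and the other 5 controls lay close together. The log2 fold change was -0.07 for Hspd1 (SE 0.189, 95% interval -0.48 to 0.34, edgeR adjusted p = 0.907) and -0.06 for Hspe1 (SE 0.162, 95% interval -0.41 to 0.29, edgeR adjusted p = 0.917). CPM of Hspd1 was 3.48 to 4.89 times that of Hspe1.

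**Figure D2:**
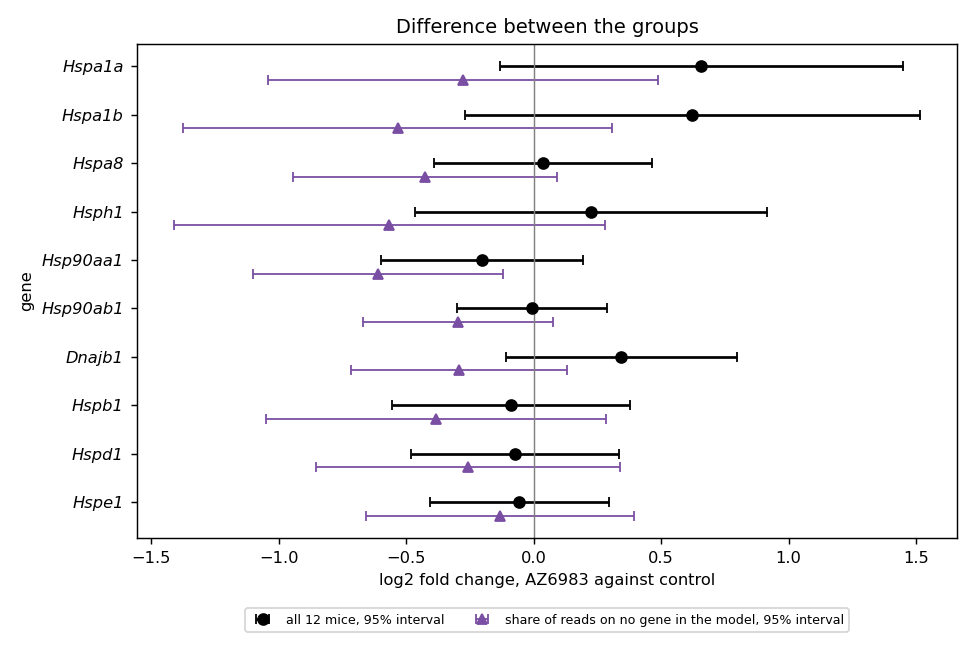
Log2 fold change of each heat shock chaperone gene, AZ6983 against control, with its 95% interval (edgeR). Circles are the comparison of all 12 mice, and triangles the same with the no-gene share as a covariate. With it, the estimates of Hspa1a, Hspa1b and Dnajb1 were -0.28, -0.53 and -0.29.

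With the no-gene share as a covariate, the sign of Hspa1a, Hspa1b, Dnajb1, Hspa8 and Hsph1 turned, to -0.28, -0.53, -0.29, -0.43 and -0.57, and adjusted p was 0.9998 for each. Their 95% intervals all included 0, as for Hspa1b (-1.38 to 0.31). The interval of Hsp90aa1 did not include 0 in that model (-0.61, 95% interval -1.10 to -0.12), and its adjusted p was 0.9998 as well. The share and the treatment move together in these mice, so the estimates of these genes for treatment alone cannot be told apart from the difference in this share.

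The spread between mice was large for 3 of the genes. Hspa1b differed by 6.15 times between the lowest and the highest mouse, Hspa1a by 5.53 times and Hsph1 by 4.91 times, and their SDs of log2 CPM (0.832, 0.782 and 0.634) lay at the 94.9th, 94.3rd and 91.1st percentile of all tested genes. The other members varied by 1.75 to 2.46 times and lay between the 53.5th and the 78.6th percentile.

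The genes varied together across mice, with more high correlations than among pairs of all genes. Over the 12 mice the 45 pairs had a mean Pearson correlation of log2 CPM of 0.590 and a median of 0.635, against a mean of 0.0054 over the 125714296 pairs of all tested genes. Correlation above 0.5 was found for 29 pairs (64.4%) against 10.55% of all pairs, and above 0.8 for 10 pairs (22.2%) against 1.05%. Of the 45 pairs, 27 passed an adjusted permutation p under 0.1 with Pearson's r, 22 with Spearman's rho and 20 with both. The mean was 0.561 within controls and 0.715 within AZ6983 mice, and 42 pairs were positive in both groups. The shares of all gene pairs that passed, or that were positive in both groups, were not computed.

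**Figure D3:**
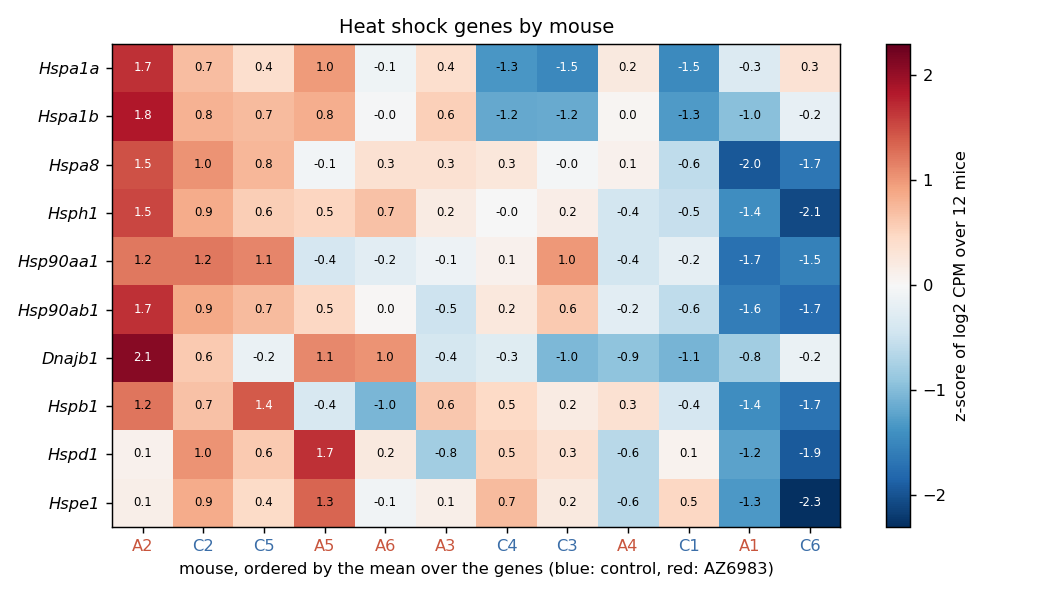
Log2 CPM of each heat shock chaperone gene in each mouse, given as the number of SDs from that gene's mean over the 12 mice (z score). A2 and C2 lay above the mean for all 10 genes, A1 below it for all 10, and C6 below it for all except Hspa1a.

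The mean z score of the 10 genes ordered the mice without regard to group. It was highest in A2 (1.30), then C2 (0.863), C5 (0.660) and A5 (0.611), and near 0 in A6, A3, C4 and C3. A4 (-0.26) and C1 (-0.556) lay lower, and A1 (-1.28) and C6 (-1.30) stood apart at the bottom, 1 from each group. A2 was the highest mouse for 7 of the genes and C6 the lowest for 5. Without C6 and A1, 22 of the 45 pairs had a correlation above 0.5, and the mean was 0.463. Of these 22, 19 were among the 29 over all mice and 3 were not. The share of all gene pairs above 0.5 without these mice was not computed.

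By the proteins' roles, the inducible Hsp70 genes were the closest pair, with r = 0.951 between Hspa1a and Hspa1b (permutation p = 1e-05, the smallest that 100000 draws can give, adjusted p = 0.000338 over 45 pairs; rho = 0.958, permutation p = 2e-05). It was 0.955 within controls, 0.960 within AZ6983 mice and 0.936 without the 2 mice farthest from the median, and shared sequence between these genes was not separated from shared level. Dnajb1 followed both, with r = 0.741 to Hspa1a (permutation p = 0.006, adjusted p = 0.015; rho = 0.804, permutation p = 0.00286) and 0.637 without the 2 farthest mice. Within controls and AZ6983 mice that r was 0.842 and 0.740.

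Correlations were also high among Hspa8, Hsph1, Hsp90aa1 and Hsp90ab1. Hspa8 and Hsph1 had r = 0.938 (permutation p = 4e-05, adjusted p = 0.00036; rho = 0.874, permutation p = 0.00047), 0.978 within controls, 0.927 within AZ6983 mice and 0.863 without the 2 farthest mice. The Hsp90 isoforms had r = 0.916 (permutation p = 3e-05, adjusted p = 0.000338; rho = 0.853, permutation p = 0.00064), 0.980 within controls, 0.929 within AZ6983 mice and 0.797 without the 2 farthest mice. Hspb1 followed them, at 0.856 to Hspa8 and 0.860 to Hsp90aa1, and these values were 0.671 and 0.693 without C6 and A1. Hsph1 also joined Dnajb1, at 0.642 over all mice and 0.891 without C6 and A1.

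The mitochondrial genes Hspd1 and Hspe1 had r = 0.932 (permutation p = 3e-05, adjusted p = 0.000338; rho = 0.874, permutation p = 0.00035), 0.975 within controls, 0.894 within AZ6983 mice and 0.857 without the 2 farthest mice. With Hspa1a, r over all mice was 0.0665 for Hspd1 and -0.007 for Hspe1, and with Hspa1b it was 0.255 and 0.219. Within controls Hspa1a had -0.124 with Hspd1 and -0.286 with Hspe1, and within AZ6983 mice 0.534 and 0.637. Their relation to Hspa8 rested on C6 and A1, since Hspe1 had 0.689 with Hspa8 over all mice and -0.0359 without these 2 mice, and Hspd1 had 0.635 and 0.0590. Some pairs differed between groups in value, as Hspa1a with Hsp90ab1 (0.00149 in controls and 0.8997 in AZ6983 mice) and Hspb1 with Hspd1 (0.904 and 0.0435), and the difference was not tested.

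**Figure D4:**
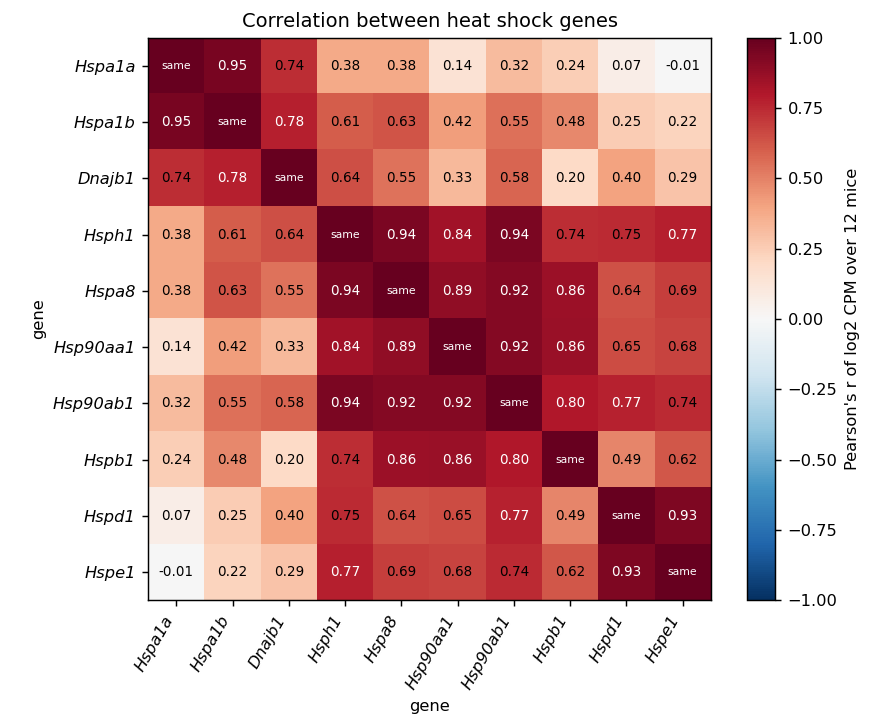
Pearson correlation of log2 CPM over the 12 mice for each pair of heat shock chaperone genes. Hspa1a with Hspa1b (0.951), Hspa8 with Hsph1 (0.938) and Hspd1 with Hspe1 (0.932) were among the closest, and Hspa1a with Hspe1 (-0.007) was the lowest.

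Other measures of the libraries varied with some of these genes, and their part in the covariation was not tested beyond the values given. Among 90 relations of a gene with a measure, 10 had an adjusted permutation p under 0.1. The share for other genes was not computed. The no-gene share had r = 0.806 with Hspa1a (permutation p = 0.00183, adjusted p = 0.0386; rho = 0.706, permutation p = 0.0135). It was 0.619 without the 2 farthest mice, 0.809 within controls and 0.646 within AZ6983 mice. With Hspa1b it was 0.788 and with Dnajb1 0.786, but 0.112 with Hspd1 and 0.0406 with Hspe1. Between these lay Hsph1 (0.542), Hspa8 (0.474), Hsp90ab1 (0.407), Hsp90aa1 (0.185) and Hspb1 (0.158). For Hspa8, Hsph1, Hsp90aa1 and Hsp90ab1 it was 0.845 to 0.907 within AZ6983 mice and 0.336 to 0.437 within controls.

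The mitochondrial pair varied with fat markers. Summed brown fat markers had r = 0.832 with Hspd1 (permutation p = 0.00056; rho = 0.839, permutation p = 0.00129), and 0.994 within controls, 0.890 within AZ6983 mice and 0.765 without the 2 farthest mice. With Hspe1 they had r = 0.714 (permutation p = 0.00588, adjusted p = 0.0632; rho = 0.818, permutation p = 0.00188). The marker sum was lowest among controls in C6, at 2770 CPM against 3949 to 4591 in the other controls, and highest of all in A5, at 5931 CPM, the same mice that were lowest and highest for both genes. In the other AZ6983 mice it was 2440 to 3176 CPM. The 17 immediate early genes, which respond within minutes to handling and stress, summed to 1449 CPM in C6 and 1287 CPM in A1 against 625 to 879 CPM in the other 10 mice. Their sum had r = -0.735 with Hspd1 and -0.820 with Hspe1, and -0.149 and -0.101 without C6 and A1. Hspd1 also had r = -0.801 with summed smooth muscle markers, and -0.649 without the 2 mice farthest from the median of that sum.

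With 1 measure at a time regressed out, the mean correlation of 0.590 was 0.531 for the no-gene share, 0.652 for brown fat markers, 0.508 for white fat markers and 0.568 for immediate early genes. For skeletal muscle markers it was 0.460 and for smooth muscle markers 0.471.

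Heat shock factors 1 and 2, above these genes in the pathway, had SDs of log2 CPM of 0.092 and 0.114 over the mice. Hsf1, the main heat shock factor, had 20.5 to 23.9 CPM in controls and 19.3 to 23.5 CPM in AZ6983 mice, and its estimate was 0.03 on the log2 scale (SE 0.063, edgeR adjusted p = 0.896). Its correlation with the mean z score of the 10 genes was 0.592, and 0.289 without C6 and A1. Hsf2, which acts together with Hsf1, had a log2 fold change of -0.11 (edgeR adjusted p = 0.575) and a correlation of -0.217.

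Other chaperones, with related factors, cochaperones and proteases, were taken as 8 groups of 99 genes, of which 96 were tested. None passed 10% FDR in edgeR, 38 estimates were above 0 (39.6%, against 52.4% of all tested genes) and 58 below, and 3 genes had an unadjusted p under 0.05 (3.12%, against 10.2% of all tested genes). All 6 tested small heat shock proteins other than Hspb1 had estimates below 0, with a median of -0.13. The lowest p of the 96 was that of Hspb8, a small heat shock protein of muscle, at -0.26 (SE 0.0751, edgeR adjusted p = 0.447). It was followed by Hspa1l, an Hsp70 next to Hspa1a, at 0.41 (SE 0.149, edgeR adjusted p = 0.450), and the factor Hsf4 at -0.39 (edgeR adjusted p = 0.487). Fkbp5, a steroid receptor cochaperone, was at -0.67 (SE 0.312, edgeR adjusted p = 0.492). Pfdn1, a prefoldin subunit, was at -0.11, Canx of the endoplasmic reticulum at -0.12 and the mitochondrial protease Lonp1 at -0.17, with adjusted p-values of 0.503, 0.574 and 0.555. The remaining genes with the lowest p in a group were Hsbp1 (-0.09), Hspa2 (-0.18), Dnajb4 (0.34), Dnaja2 (-0.11), Bag6 (0.12), Hspb7 (-0.27), Dnajc10 (-0.12), Htra2 (-0.05) and Vbp1 (-0.18).

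**Figure D5:**
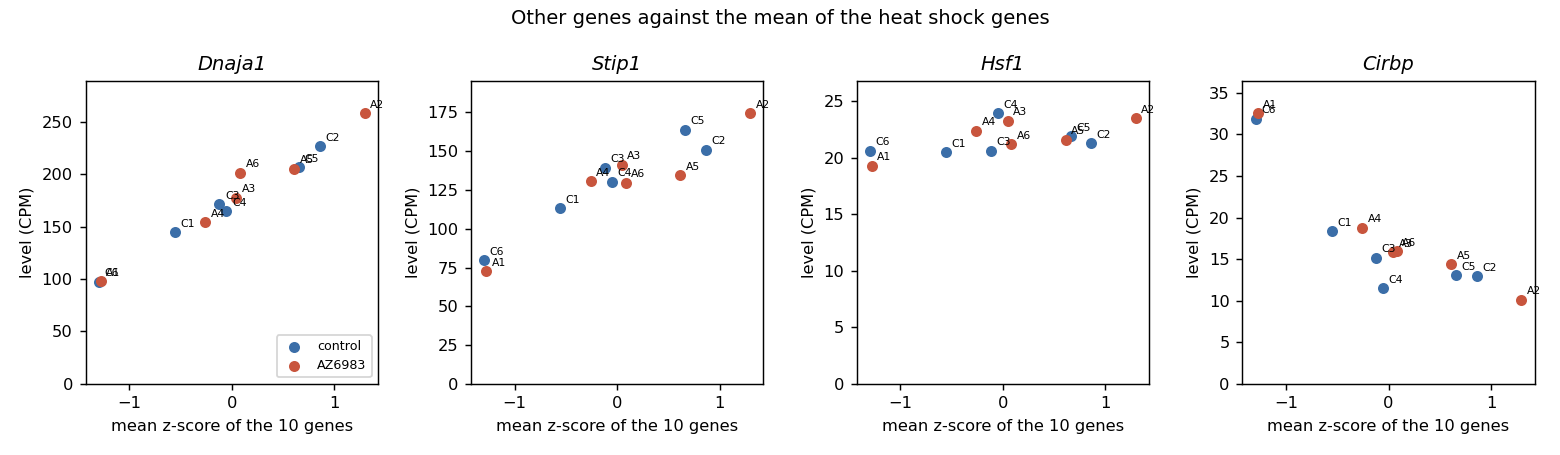
Levels of Dnaja1, Stip1, Hsf1 and Cirbp in each mouse, as CPM, against the mean z score of the 10 heat shock chaperone genes. Pearson's r of log2 CPM with that score over the 12 mice was 0.978 for Dnaja1 and 0.925 for Stip1. It was 0.592 for Hsf1 and -0.910 for Cirbp.

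The genes whose levels most resembled the mean z score of the 10 were in part their protein partners. Ranked among 15847 other genes by Pearson's r over the 12 mice, given as a description since every point shares its library with the members, the first was Dnaja1 (0.978), an Hsp40, and Dnaja4 (0.962), another Hsp40, was among the first 10. Ahsa2 (0.949) and Chordc1 (0.936), cochaperones of Hsp90, and Stip1 (0.925), which links Hsp70 to Hsp90, were so too. The others of the 10 were Papola (0.964), Gm15542 (0.954), Trmt1l (0.933), Trip11 (0.926) and Gm14636 (0.921). Dnaja1 had 97.6 CPM in C6, 97.9 CPM in A1 and 258 CPM in A2, and its r was 0.966 without C6 and A1. At the other end were Lancl1 (-0.960), Cbx7 (-0.937), Cfap20 (-0.930) and 4932441J04Rik (-0.922). Among all non-members, 1622 (10.2%) lay above 0.5 and 100 (0.631%) above 0.8.

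By list, correlations above 0.5 were found for 9 of 20 cochaperones and 12 of 20 genes of the endoplasmic reticulum list. They were found for 4 of 10 other Hsp40 genes and 3 of 8 other Hsp70 and Hsp110 genes. For subunits of TRiC and prefoldin the count was 3 of 14, and for other mitochondrial genes 1 of 14. Of the other small heat shock proteins, 0 of 6 lay above 0.5. The endoplasmic reticulum list also holds the stress transcription factors Ddit3, Xbp1 and Atf4, which are not chaperones, and Ddit3 (0.731) was among its 12. Without C6 and A1 the counts were 8 of the cochaperones, 5 of the endoplasmic reticulum list and 4 of the Hsp40 genes. They were 2 of the Hsp70 and Hsp110 genes, and 0 of TRiC and prefoldin and of the mitochondrial genes, against 14.7% of all non-members. Ddit3 (0.552) and Atf4 (0.520) were among the 5. Above 0.8 over all mice lay Stip1, Ahsa1, Ahsa2, Fkbp4, Chordc1, St13 and Cacybp of the cochaperones, Dnaja1, Dnaja4 and Dnajb2 of the Hsp40 genes, and Hspa4 (0.882) and Hspa4l (0.887), the Hsp110 relatives. In the endoplasmic reticulum 1 gene, Dnajb9 (0.882), passed 0.8, and Hspa5, the Hsp70 of that compartment, had 0.773 over all mice and 0.487 without C6 and A1. Stub1, the ligase that marks chaperone clients for degradation, ran the other way (-0.840). All 10 skeletal muscle markers and 5 of 6 cardiac muscle markers had correlations above 0.5 as well, and 10 and 0 without C6 and A1.

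Cirbp, an RNA-binding gene that cold raises and heat lowers, ran opposite to the mean z score of the chaperone genes. It had 31.9 CPM in C6 and 32.5 CPM in A1, the mice lowest in that score. In A2, the highest, it had 10.1 CPM, against 11.5 to 18.8 CPM in the others. Its r with the mean z score was -0.910, and -0.783 without C6 and A1. For Rbm3, the other well known cold-induced gene, it was -0.324. C6 was not low for every member, at rank 6 from the top for Hspa1a and Dnajb1 and rank 8 for Hspa1b. Correlations of Cirbp with single members were not computed.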

How the data were processed

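RNA of thoracic aorta was sequenced after removal of ribosomal RNA as stranded total RNA, 75 bases from both ends, in 6 control and 6 AZ6983 mice. The authors deposited raw counts per gene symbol, and the submitters' processing notes name CASAVA 1.8.2, STAR 2.5.2b, HTSeq 0.6.1p1 and mm10, without giving their settings. Rows without a gene name entered neither library sizes nor tests, and held reads on no gene (8.02% to 14.9% of a library), reads with more than 1 place (18.1% to 23.2%), which takes reads from near-identical genes, and ambiguous reads (0.606% to 0.698%). Total RNA includes unspliced transcripts.

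Groups came from the sample labels, and the mice are separate animals. The labels give no batch. A number from 1 to 12 that ends each column name has no stated meaning, and controls take 3 to 7 and 12. Mouse A1 was matched by 3 of 4 digits.

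R 4.3.3 with edgeR 4.0.16 gave the differences (TMM, filterByExpr, quasi-likelihood test, Benjamini-Hochberg adjustment, 10% FDR), with SE as the size of the log2 fold change over the square root of F. Alternatives were DESeq2 1.42.0, the tool of the study, limma-voom (limma 3.58.1), other scaling and filters, a covariate and each mouse left out. Permutation tests used all 924 assignments for 1 value (smallest p 0.00216) and 100000 draws for a correlation over 12 mice, on log2 CPM with a prior count of 2 (Python 3.11.15, scipy 1.17.1). Correlations were adjusted within families of 45 pairs and 90 relations. Genes named were the 10 members, Hsf1, Hsf2, the 2 lowest p-values of each other chaperone group, and the 10 highest and 5 lowest correlations with the members' mean z score, of which 1 is not reported here. Other genes in the text come from the lists and were picked after their values were seen. They are Ahsa1, Fkbp4, St13, Cacybp, Stub1, Hspa4, Hspa4l, Hspa5, Dnajb2, Dnajb9, Ddit3, Xbp1, Atf4, Cirbp and Rbm3. The members and lists were chosen with earlier results of these data known. The scripts were tested on simulated data.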

Additional observations from a re-analysis of the deposited data

Results flagged for a closer look

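Of 40 groups of 6 mice checked for a single mouse far from the others of its group, 7 held one, and chance alone gives about 1 in 20. Hspd1 in C6 was at 8.075 log2 CPM, against 8.781 to 9.112 in the other controls, and Hspe1 in C6 was at 5.925, against 6.699 to 6.894. The summed brown fat markers stood apart in the same mouse, at 11.44 log2 CPM against 11.95 to 12.16, and in A5, at 12.53 against 11.25 to 11.63 in the other AZ6983 mice. The summed immediate early genes were high in C6, at 10.5 log2 CPM against 9.288 to 9.724, and in A1, at 10.33 against 9.477 to 9.78. The summed thymocyte markers were high in A4, at 10.48 log2 CPM against 5.967 to 6.965, and A4 was neither the lowest nor the highest of the 12 mice for any heat shock chaperone gene.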

How the results depend on the processing

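The count of heat shock chaperone genes past 10% FDR was 0 under every alternative, as was that of the other chaperone groups. Over all genes, edgeR's 0 became 92 with DESeq2, 84 with DESeq2 on the filtered genes, 2 with scaling by library totals only, and 3 without C6, A1 and A2, an alternative chosen after seeing the data. Leaving out 1 mouse gave 0 to 27 genes, with 27 without A5, and 1 without C6 and 1 without A1. Of 240 alternative fold changes of the 10 genes, 219 kept their sign, 21 turned, and none was called (adjusted p 0.362 to 0.9998). Turned signs came with the no-gene share as covariate (Hspa1a -0.28, Hspa1b -0.53, Hspa8 -0.43, Hsph1 -0.57, Dnajb1 -0.29), with a mean count of at least 50 (Hsp90ab1 0.0020) and without C6, A1 and A2 (Hspa8 -0.057). The others came with 1 mouse left out, 7 for Hsp90ab1, 3 for Hspa8, 2 for Hspb1, and 1 for Hsph1 and Hspe1 each. Leaving out 1 mouse gave 0.40 (without A2) to 0.85 (without C2) for Hspa1a, 0.27 (without A2) to 0.84 (without C2) for Hspa1b, 0.16 to 0.44 for Dnajb1, -0.0043 to 0.37 for Hsph1, -0.10 to 0.15 for Hspa8, -0.34 to -0.12 for Hsp90aa1, -0.11 to 0.059 for Hsp90ab1, -0.23 to 0.011 for Hspb1, -0.25 to -0.00097 for Hspd1 and -0.18 to 0.012 for Hspe1. The cause of these shifts was not tested.

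The mean correlation of the 45 pairs (0.590, jackknife SE 0.101) was 0.528 (without A2) to 0.626 (without C3) with 1 mouse left out. After seeing the data it was also computed without C6 and A1 (0.463), without C6, A1 and A2 (0.413), and with skeletal muscle (0.460) or smooth muscle markers (0.471) regressed out. No paired analysis was possible because the labels give mouse numbers and no replicate number shared between groups. With 6 mice a group, the intervals of Hspa1a and Hspa1b reached 1.45 and 1.52 on the log2 scale, so differences up to that size lie within the intervals.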
